A study of Mus musculus with 9 samples.

Results

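The matrix metallopeptidases and their tissue inhibitors were examined in the prefrontal cortex of C57BL/6 mice, as 10 of the 24532 genes listed for every mouse. The genes were taken by their symbols: the secreted gelatinase Mmp2, the membrane-type enzymes Mmp14, Mmp15, Mmp16, Mmp24, Mmp17 and Mmp25, and the inhibitors Timp2, Timp3 and Timp4. Bulk RNA was sequenced from 9 mice, labelled as 11-week-old, with one library per mouse. Unstressed wild-type mice formed the control group (CT, n = 3). Wild-type mice that went through daily chronic restraint formed the WT_ST group (n = 3), and homozygous Fkbp5 knock-out mice under the same restraint formed the KO_ST group (n = 3). No unstressed knock-out mice were sequenced, so KO_ST differed from CT in both genotype and stress, and an effect of the knock-out without stress cannot be told apart from one that appears under stress.

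Matrix metallopeptidases are zinc-dependent proteases that cut proteins of the extracellular matrix and the outer parts of cell surface proteins. Mmp2 is secreted as an inactive proenzyme. Mmp14, Mmp15, Mmp16 and Mmp24 are held in the membrane by a transmembrane segment, and Mmp17 and Mmp25 by a GPI anchor. Timp2 both inhibits these enzymes and links proMmp2 to Mmp14 at the cell surface, where Mmp14 activates it. Timp3 binds to the matrix and also inhibits several ADAM proteases. In brain, these proteases and inhibitors are known for remodelling of perineuronal matrix and synapses, for the vessel wall and for inflammatory cells.

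Gene-assigned reads numbered 43778471 to 61150128 in each library. Fkbp5, a co-chaperone of the glucocorticoid receptor and the targeted gene, had an FPKM (fragments per kilobase of transcript, scaled to the mapped reads of the library) of 3.59 to 4.69 in KO_ST, below all CT mice (6.46 to 7.61) and all WT_ST mice (9.47 to 10.3). The marker genes of excitatory neurons summed to an FPKM of 1442 to 1562 in the 9 mice, those of choroid plexus to at most 1.06, and those of striatal neurons to between 46.1 and 68.9. The second CT mouse held an extreme value more often than any other mouse. Of the 14370 genes with a mean of at least 30 reads, 34.3% had their highest or lowest value of the 9 mice in it, against 13.7% to 27.6% in each of the other mice. In bulk tissue, fewer cells of a type and less RNA per cell cannot be told apart.

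Promoter sequences of 7 of the 10 genes were found in RefSeq (GRCm38.p6), and those of Mmp14 and Mmp25 are given because Mmp14 was the member whose groups separated in all 3 comparisons and Mmp25 the one with the fewest reads. Mmp2, Mmp16 and Mmp17 were not matched. Each sequence runs from 250 bases before to 50 bases after the start of the gene, on the strand of the gene, with GC boxes (GGGCGG on either strand) in capitals. The Mmp14 window lies at chr14:54431348-54431647 on the plus strand and the Mmp25 window at chr17:23645220-23645519 on the minus strand.
Mmp14: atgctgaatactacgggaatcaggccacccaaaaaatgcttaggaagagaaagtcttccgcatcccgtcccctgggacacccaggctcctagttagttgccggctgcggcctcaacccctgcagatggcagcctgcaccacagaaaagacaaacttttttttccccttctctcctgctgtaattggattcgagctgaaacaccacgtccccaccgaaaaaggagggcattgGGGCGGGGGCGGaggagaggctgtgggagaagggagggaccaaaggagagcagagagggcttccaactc
Mmp25: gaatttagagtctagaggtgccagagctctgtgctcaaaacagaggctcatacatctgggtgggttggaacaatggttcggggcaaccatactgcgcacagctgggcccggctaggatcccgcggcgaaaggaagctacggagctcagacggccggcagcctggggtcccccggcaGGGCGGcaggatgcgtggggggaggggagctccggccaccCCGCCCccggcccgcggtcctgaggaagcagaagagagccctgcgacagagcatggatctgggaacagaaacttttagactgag
The adjoining pair of GC boxes of Mmp14 begins 19 and 13 bases before the start, and those of Mmp25 begin 74 and 34 bases before it. A GC box, the motif bound by Sp1-type factors, was present in 6 of the 7 promoters and in 35.66% of the 32851 mouse promoter windows of the same length. The exception was Timp4. GC content ran from 53.33% (Timp4) to 80% (Mmp24) in the 7 windows, beside a median of 52.67% over all windows. The part of GC content in the number of GC boxes was not tested. The AP-1 motif TGANTCA (7.808% of all windows), the TATA box TATAAA (13.62%) and the glucocorticoid receptor half-site AGAACA (18.97%) were searched on both strands and had no match in these 7 windows. Such matches describe the letters in these windows and do not show a bound site.

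The 10 genes covered a wide range of levels. Timp2 was the most abundant, with a mean FPKM of 88.2 over the 9 mice, followed by Mmp17 at 64.2, Timp3 at 15.1, Mmp24 at 12.4 and Timp4 at 10.8. Mmp24 was above Timp4 in 9 of 9 mice, although their ranges over mice overlapped. Mmp16 at 3.85, Mmp15 at 3.82 and Mmp14 at 3.46 formed a middle class in which the order changed from mouse to mouse. Mmp16 was above Mmp15 in 4 of 9 mice and Mmp15 above Mmp14 in 7 of 9. Mmp2 averaged 0.601, and Mmp25 averaged 0.107, which rested on 8 to 39 reads per mouse. The ranges of the other neighbours in this order did not overlap.

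**Figure D1:**
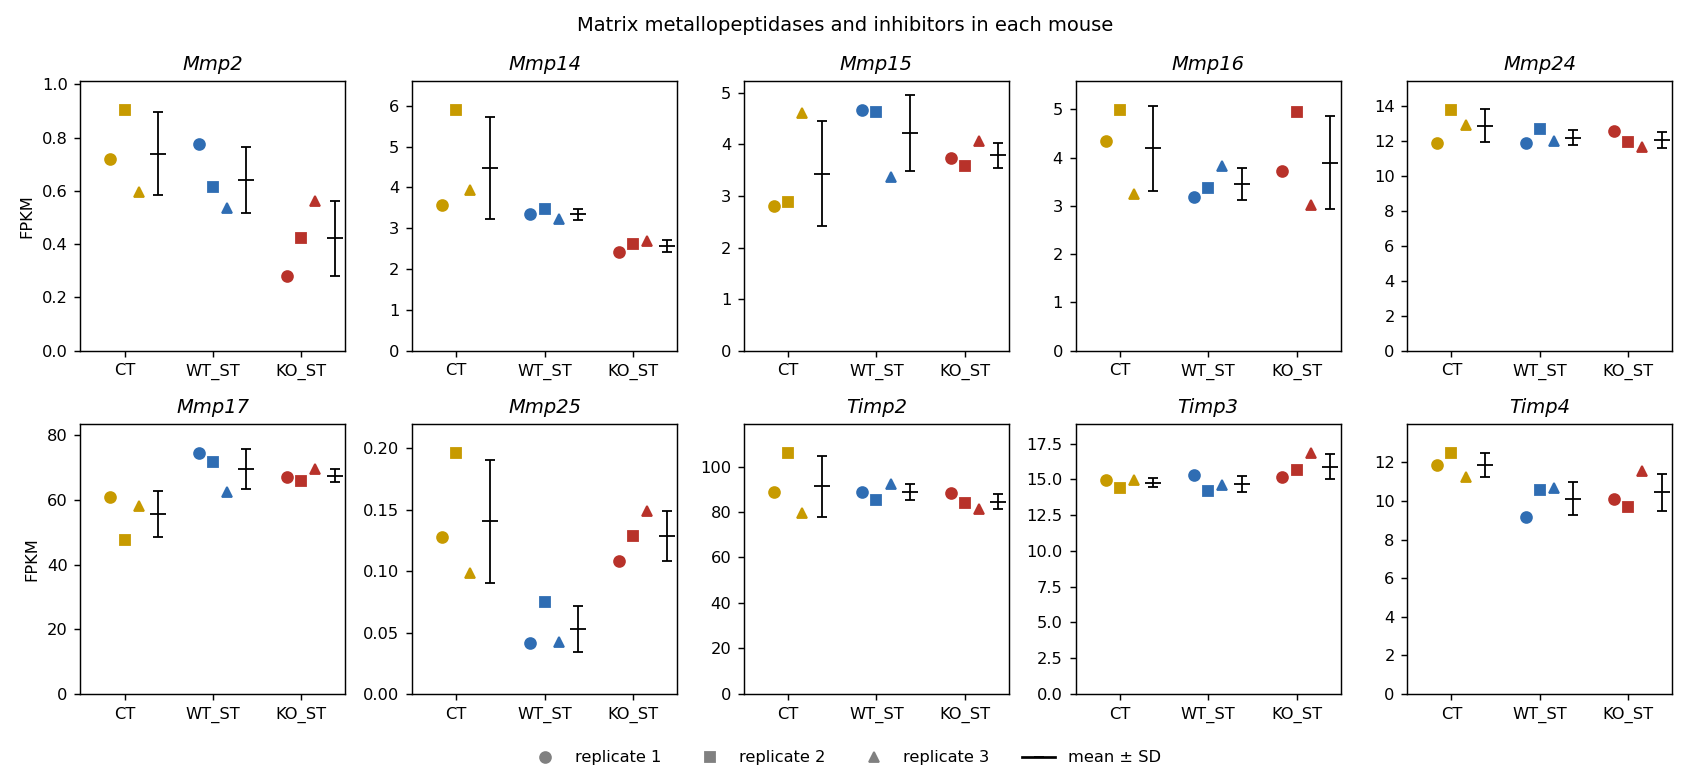
FPKM of each member in each mouse. The horizontal axis gives the group and the vertical axis the FPKM, starting at 0, with one point per mouse (shape for the replicate number), and the horizontal bar and whiskers show mean ± SD (n = 3). For Mmp14 the 3 groups are stacked without overlap, from 3.57 or more in CT to 2.69 or less in KO_ST.

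Mmp17 made up 72.3% ± 4.2 (SD, n = 9) of the summed FPKM of the 7 metallopeptidases, and Timp2 made up 77.2% ± 1.71 (SD, n = 9) of that of the 3 inhibitors. The inhibitor sum divided by the metallopeptidase sum was 1.46 ± 0.252 in CT, 1.22 ± 0.133 in WT_ST and 1.23 ± 0.0320 in KO_ST (SD, n = 3 each). The CT mice ranged from 1.264 to 1.74 and the WT_ST mice from 1.14 to 1.37, so these groups overlapped. The KO_ST mice, at 1.198 to 1.261, lay just below every CT mouse. The ratio of Timp2 to Mmp14 was 18.0 to 24.8 in CT, 24.5 to 28.7 in WT_ST and 30.3 to 36.6 in KO_ST. The KO_ST mice lay above all others in this ratio, and CT and WT_ST overlapped. Relative spread over the 9 mice was smallest for Timp3 (coefficient of variation 5.20%) and Mmp24 (5.46%). It was largest for Mmp25 (46.7%), Mmp2 (30.9%) and Mmp14 (30.1%), for which counting error alone would give 21.9%, 10.2% and 3.85%.

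Differences between groups were tested with limma on quantile-normalized log2(FPKM+1), over all 14370 genes with a mean of at least 30 reads, which included 9 of the 10 members. Mmp25, with a mean of 20.8 reads, did not reach this minimum. A gene was called when its unadjusted p was under 0.05 and its fold change above 1.2. Stress in wild-type mice (WT_ST against CT) gave 1 called member, Mmp17, of 9 tested (11.1%), where 2.47% of all tested genes were called. KO_ST against CT gave 3 (33.3%), Mmp14, Mmp2 and Mmp17, with 3.56% of all tested genes called. KO_ST against WT_ST gave 1 (11.1%), Mmp14, with 2.0% of all tested genes called. None of these calls passed Benjamini-Hochberg adjustment over all genes, and 0.0348%, 0.0626% and 0.153% of all tested genes had an adjusted p under 0.05 in these comparisons. The lowest adjusted p of a member from limma was 0.634, 0.470 and 0.581 in the 3 comparisons, while 2, 3 and 2 members and 1129, 1359 and 837 of all tested genes had an unadjusted p under 0.05. At an adjusted p under 0.05, edgeR on the read counts likewise called 0 members in each comparison, with 2, 3 and 1 members at an unadjusted p under 0.05. The median log2 fold change of the 9 members was -0.056, -0.061 and -0.031, beside 0.0034, 0.0024 and -0.0015 for all tested genes. The comparisons share mice in pairs, so they are not independent of each other.

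**Figure D2:**
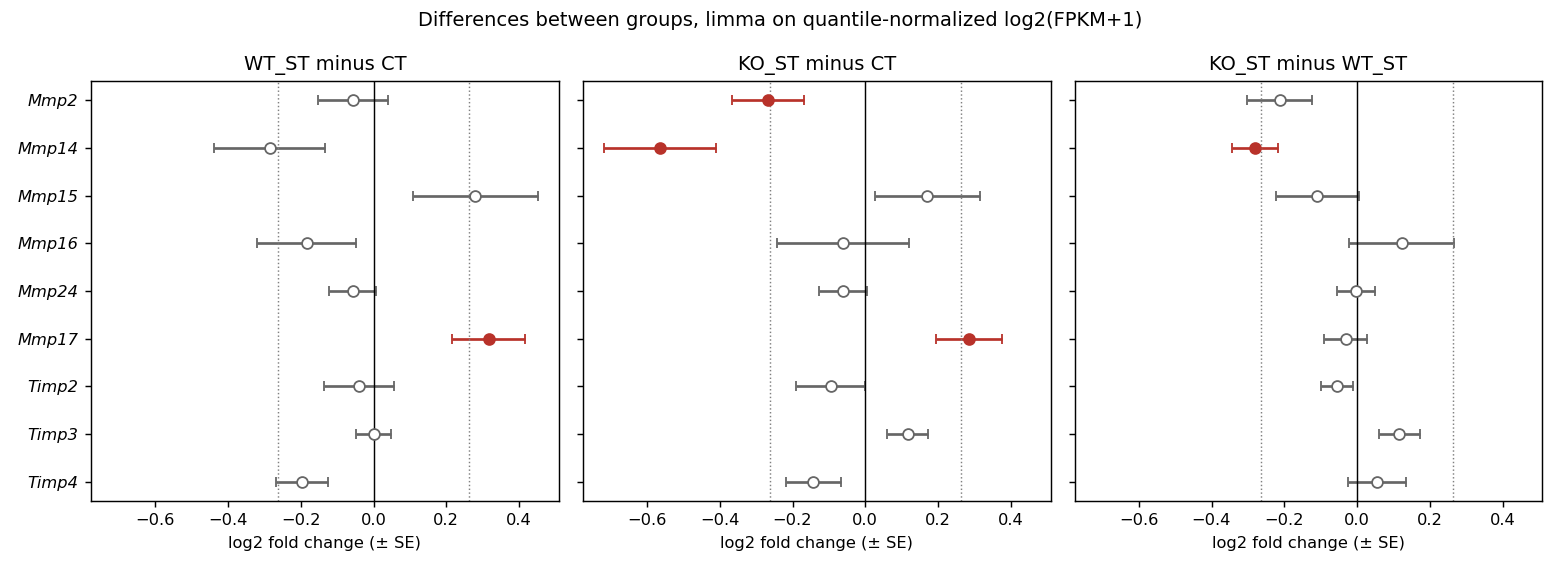
Log2 fold change of the 9 tested members in the 3 comparisons, from limma. The horizontal axis gives the log2 fold change on the log2(FPKM+1) scale and the whiskers ± 1 standard error, dotted lines mark a fold change of 1.2, and filled red points are called members. Mmp14 lies left of 0 in all 3 panels, and Mmp17 right of the dotted line in both comparisons with CT.

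Mmp14 (MT1-MMP, the membrane enzyme that activates proMmp2) lies on chromosome 14 from 54431598 to 54442456 (GRCm38, plus strand). Its FPKM was 3.57, 5.90 and 3.94 in the CT mice, from 850, 1219 and 750 reads. It was 3.34, 3.48 and 3.21 in WT_ST, from 640, 656 and 555 reads. It was 2.41, 2.60 and 2.69 in KO_ST, from 410, 465 and 536 reads. All KO_ST mice were below all WT_ST mice, which in turn were below all CT mice, and the second CT mouse was far above the rest. Mean FPKM fell from 4.47 ± 1.25 in CT to 2.57 ± 0.143 in KO_ST (SD, n = 3 each), and was 3.35 ± 0.134 in WT_ST. On the log2(FPKM+1) scale, the difference of KO_ST from CT was -0.56 (standard error 0.153, limma, adjusted p = 0.470). KO_ST differed from WT_ST by -0.28 (standard error 0.0633, limma, adjusted p = 0.581). The difference of WT_ST from CT was -0.29 and did not pass (standard error 0.152, limma, adjusted p = 0.679). On the read counts, edgeR gave log2 fold changes of -0.78, -0.37 and -0.41 for these comparisons.

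The called differences of Mmp14 were fitted again without each mouse. Against CT, KO_ST was called lower in 6 of 6 fits that left out 1 mouse, with a log2 fold change between -0.68 and -0.38, the latter without the second CT mouse. Against WT_ST, it was called in 5 of 6 fits, and without the first KO_ST mouse the log2 fold change of -0.25 was under the fold threshold. The uncalled difference of WT_ST from CT was -0.10 without the second CT mouse, and -0.40 and past the threshold without the first. With the spread estimated from all 9 mice in one limma fit, the difference from WT_ST kept its log2 fold change of -0.28 but did not pass on p.

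Mmp2 (gelatinase A, which degrades collagens and basement membrane) lies on chromosome 8 from 92827290 to 92853421. Its FPKM was 0.720, 0.904 and 0.595 in CT, from 139, 152 and 92 reads. It was 0.775, 0.614 and 0.535 in WT_ST, from 121, 94 and 75 reads. It was 0.281, 0.425 and 0.561 in KO_ST, from 39, 62 and 91 reads. The KO_ST mice lay below all CT mice but overlapped WT_ST, and the highest KO_ST mouse was close to the lowest CT mouse. KO_ST differed from CT by -0.27 on the log2(FPKM+1) scale (standard error 0.0989, limma, adjusted p = 0.501). At so low an FPKM the added 1 shrinks the difference, and edgeR on the read counts gave a log2 fold change of -0.78. Against WT_ST the difference was -0.21 (standard error 0.0893, limma, adjusted p = 0.852), a fold of 1.16 and thus under the threshold, where edgeR gave -0.58. The call against CT was kept in 2 of 6 fits with 1 mouse left out, those without CT replicate 3 or KO_ST replicate 3. In the other fits the log2 fold change was -0.27 and -0.19 without CT replicates 1 and 2, and -0.21 and -0.27 without KO_ST replicates 1 and 2.

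**Figure D3:**
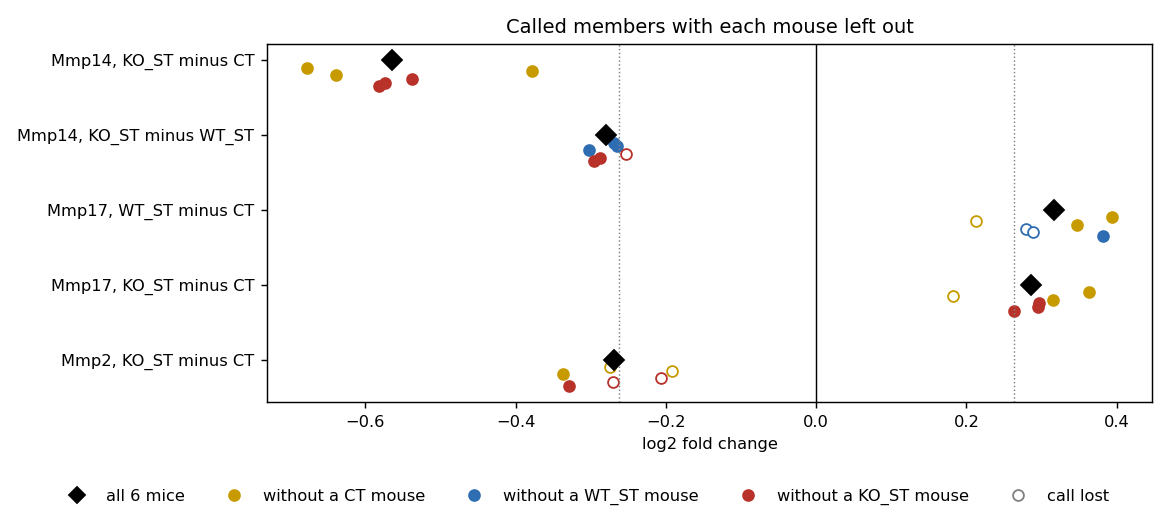
Log2 fold change of the 5 called differences with all mice and with each mouse left out. The horizontal axis gives the log2 fold change from limma, diamonds the fits with all 6 mice, circles the fits without 1 mouse (colour for its group, open where the call was lost), and dotted lines a fold change of 1.2. Only the decrease of Mmp14 in KO_ST against CT has no open circle, with values from -0.68 to -0.38.

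Markers of other cell types were summed in the same mice. The 7 microglia markers summed to an FPKM of 146 to 186 in CT, 117 to 131 in WT_ST and 67.0, 97.1 and 136 in KO_ST. Called lower were 6 of 7 in WT_ST against CT, 6 of 7 in KO_ST against CT and 1 of 7 in KO_ST against WT_ST. None of the 7 was at 0 in any mouse. The 7 fibroblast markers, which include collagens of the meninges, summed to 13.5 to 20.8 in CT, 11.7 to 20.7 in WT_ST and 13.1 to 17.0 in KO_ST, and these groups overlapped. Of these 7, only Col1a2 was called, lower in KO_ST than in CT. The 3 oligodendrocyte precursor markers summed to 20.6 to 26.6 in CT, 17.6 to 20.5 in WT_ST and 16.5 to 20.2 in KO_ST, below CT without overlap in both stressed groups, and Gpr17 was called lower in KO_ST against CT. The 6 endothelial markers summed to 58.5 to 71.3 over all mice with overlapping groups, and Cldn5 was called lower in both stressed groups against CT. Pecam1 lay below CT without overlap in both, differing by -0.20 in WT_ST and -0.25 in KO_ST. Ly6c1, another endothelial marker, lay above CT without overlap in both, with differences of 0.22 in WT_ST and 0.23 in KO_ST. Neither Pecam1 nor Ly6c1 was called. The part of these cell types in the Mmp14 and Mmp2 values was not tested.

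**Figure D4:**
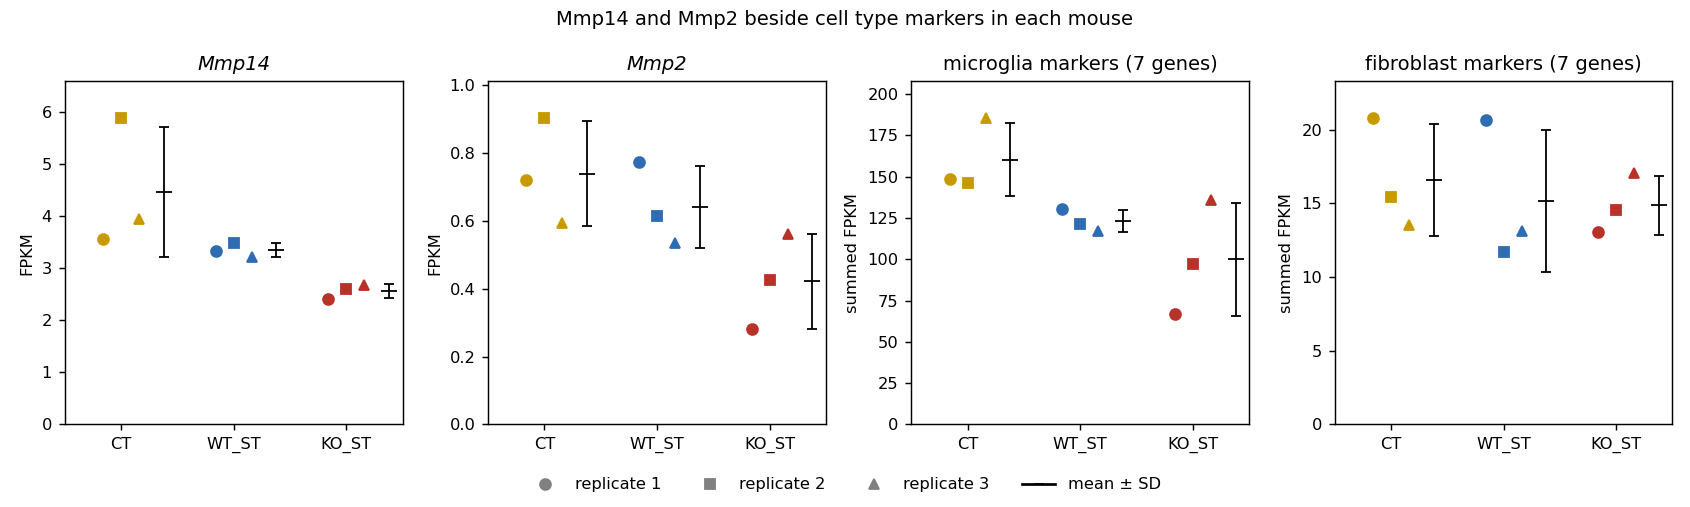
FPKM of Mmp14 and Mmp2 beside the summed FPKM of 7 microglia markers and 7 fibroblast markers, by group. Each point is a mouse (shape for the replicate number) and the bars are mean ± SD (n = 3). Microglia sums run from 146 to 186 in CT and from 67.0 to 136 in KO_ST, and fibroblast sums overlap between the groups.

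The other transmembrane enzymes were not called in any comparison with all mice. Mmp15 (MT2-MMP) had an FPKM of 2.81, 2.88 and 4.61 in CT, 4.67, 4.64 and 3.38 in WT_ST and 3.74, 3.58 and 4.06 in KO_ST. One CT mouse was close to the upper WT_ST mice, and the log2 fold change of WT_ST from CT, 0.28, did not pass (standard error 0.171, limma, adjusted p = 0.708). Mmp16 (MT3-MMP) was 4.34, 4.98 and 3.25 in CT, 3.17, 3.36 and 3.83 in WT_ST and 3.72, 4.94 and 3.02 in KO_ST. Its mice spread as widely within CT and KO_ST as between groups. Without the third CT mouse, Mmp15 was called higher in WT_ST (0.45) and in KO_ST (0.34) than in CT, and Mmp16 lower in WT_ST than in CT (-0.33). Mmp24 (MT5-MMP, which is mainly neuronal and cleaves N-cadherin) ranged only from 11.7 to 13.8 over all mice, from 2352 to 3230 reads, and its groups overlapped in every comparison.

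Mmp17 (MT4-MMP, a GPI-anchored enzyme) lies on chromosome 5 from 129584151 to 129611099. Its FPKM was 60.9, 47.5 and 58.3 in CT, 74.4, 71.7 and 62.5 in WT_ST and 67.1, 65.8 and 69.6 in KO_ST, all from at least 11566 reads. Every stressed mouse of either genotype was above every CT mouse, and the stressed groups overlapped. The difference of WT_ST from CT was 0.32 (standard error 0.101, limma, adjusted p = 0.634). The difference of KO_ST from CT was 0.29 (standard error 0.0903, limma, adjusted p = 0.499). KO_ST and WT_ST differed by -0.031 (standard error 0.0594, limma, adjusted p = 0.969). Without the second CT mouse, the lowest of the 9, the differences were 0.21 and 0.18 and fell under the fold threshold of 1.2. With each mouse left out in turn, the call was kept in 3 of 6 fits for WT_ST against CT (lost also without the first or the second WT_ST mouse) and in 5 of 6 for KO_ST against CT. Striatal neuron markers summed to 46.1 to 55.0 in CT, 55.6 to 68.9 in WT_ST and 46.6 to 56.7 in KO_ST, and 3 of 6 were called higher in WT_ST and 1 of 6 in KO_ST. The 6 inhibitory neuron markers summed to 391 to 484 in CT, with the lowest sum in the second CT mouse, 429 to 463 in WT_ST and 460 to 478 in KO_ST. None of them was called in WT_ST against CT, and Pvalb was called higher in KO_ST against CT (0.34). Slc32a1 lay above CT without overlap in both stressed groups (0.23 and 0.25), as did Gad1 (0.17) and Gad2 (0.19) in KO_ST, without being called. The part of these cells in the Mmp17 values was not tested.

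Mmp25 (MT6-MMP or leukolysin, a GPI-anchored enzyme best known from neutrophils) was the weakest member. It had 30, 39 and 18 reads in CT, 8, 14 and 8 in WT_ST and 18, 23 and 29 in KO_ST, or FPKM of 0.127, 0.196 and 0.0982, of 0.0414, 0.0749 and 0.0425 and of 0.108, 0.129 and 0.149. The WT_ST mice were below all others, and CT and KO_ST overlapped. Summed over the mice of a group, this made 87 reads in CT, 30 in WT_ST and 70 in KO_ST. With no minimum on reads, edgeR gave a log2 fold change of -1.32 for WT_ST against CT (adjusted p = 0.774). It gave 1.23 for KO_ST against WT_ST (adjusted p = 0.932) and -0.087 for KO_ST against CT (adjusted p = 0.980). The first 2 met the criterion of p and fold, which 3.65% (WT_ST against CT), 4.39% (KO_ST against CT) and 2.83% (KO_ST against WT_ST) of the 19197 genes with reads met in these fits. Both met it in 3 of 6 fits with 1 mouse left out, the first not without the second CT mouse or WT_ST replicates 1 or 3, and the other not without WT_ST replicates 1 or 3 or the third KO_ST mouse. The log2 fold changes in these fits ranged from -1.62 to -1.01 and from 1.07 to 1.52. On the log2(FPKM+1) scale its differences were -0.11 and 0.10, under the fold threshold. Because the study singled out Mmp25 from these same libraries, these values are no independent evidence of its direction. The 6 neutrophil markers summed to 4.49, 10.1 and 68.9 in CT, 2.52 to 6.34 in WT_ST and 2.39 to 10.2 in KO_ST. The part of neutrophils in the Mmp25 values was not tested.

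No inhibitor was called in any comparison. Timp2 had an FPKM of 88.6, 106 and 79.6 in CT, 88.8, 85.2 and 92.2 in WT_ST and 88.2, 83.8 and 81.5 in KO_ST, and its groups overlapped in every comparison. Timp3 was 15.0, 14.4 and 14.9 in CT, 15.3, 14.2 and 14.6 in WT_ST and 15.1, 15.7 and 16.8 in KO_ST. The KO_ST mice were above all CT mice by a small margin, with a log2 fold change of 0.12 that did not pass (standard error 0.0560, limma, adjusted p = 0.560). Timp4, an inhibitor known from brain and heart, was 11.9, 12.5 and 11.3 in CT, 9.16, 10.6 and 10.7 in WT_ST and 10.1, 9.69 and 11.5 in KO_ST. Its WT_ST mice were below all CT mice, and the difference of -0.20 (standard error 0.0709, limma, adjusted p = 0.635) was a fold of 1.15 and under the threshold. The 8 astrocyte markers summed to 768 to 833 in CT and 690 to 725 in WT_ST, where Aqp4 and Slc1a3 were called lower. The list did not move one way, since the differences of WT_ST from CT were 0.21 for Gfap, 0.16 for Aldh1l1 and 0.027 for S100b, none of them called. S100b lay above CT without overlap in KO_ST (0.19), also without a call. In KO_ST they summed to 705, 704 and 811. The part of astrocytes in the Timp4 values was not tested.

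Groups did not overlap for 3 of the 9 tested members in WT_ST against CT (Mmp14, Mmp17 and Timp4), where 14.0% of all tested genes did not overlap. The number was 4 in KO_ST against CT (Mmp2, Mmp14, Mmp17 and Timp3), beside 16.5%, and 1 in KO_ST against WT_ST (Mmp14), which is 11.1% of the members and the same share as the 11.1% of all tested genes. Mmp25, which is outside these counts, did not overlap in the first and the last comparison. The second CT mouse was the highest of the 9 mice for 7 members, Mmp2, Mmp14, Mmp16, Mmp24, Mmp25, Timp2 and Timp4, and the lowest for Mmp17. Among all tested genes it was the highest for 17.1% and the lowest for 17.2%, and CT replicate 3 was the highest for 18.9%. Some members share their locus with other genes, and the strand setting of the counting is not given in the sources used here. Timp3 lies inside Syn3 and Timp4 inside Syn2, both on the opposite strand with overlapping exons, and Mmp24 overlaps BC029722 in the same way. Syn2, Syn3 and BC029722 were not called in any comparison.

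For each called member and for Mmp25, the tested genes whose values were most similar over the 9 mice were taken as a description. The mice share groups, and the second CT mouse is an extreme for many genes. Mmp14 was closest to Leo1 (Pearson r = 0.984, Spearman rho = 0.883), Rps3a1 (0.976 and 0.966) and Ctxn1 (0.967 and 0.921). Among the genes closest to Mmp17 were the potassium channel subunit gene Kcnab3 (0.975 and 0.967) and Gm13629 (0.969 and 0.967). Mmp2 was closest to the leukocyte adaptor gene Lcp2 (0.969 and 0.917), the lymphoid and myeloid receptor gene Gpr183 (0.945 and 0.983) and Afap1l2 (0.944 and 0.950). Mmp25 was closest to Cul9 (0.969 and 0.950), Tacc3 (0.954 and 0.867) and Slc15a5 (0.948 and 0.983).

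Other genes of the proteolytic system were listed as 4 groups of 56 genes in all, of which 39 were tested. None was called in WT_ST against CT or in KO_ST against WT_ST, and 1 was called in KO_ST against CT. That gene was Plau, the urokinase-type plasminogen activator, with a log2 fold change of 0.29 (standard error 0.119, limma, adjusted p = 0.515). Of the 17 further metallopeptidase and inhibitor genes, 7 had 0 reads in all mice, among them Mmp3 and Mmp7, and 7 were under the minimum. The 3 tested ones were Mmp9, Mmp11 and Mmp28. Mmp11 (stromelysin 3) was 0.347, 0.515 and 0.494 in KO_ST, below all CT mice (0.561 to 0.902) and all WT_ST mice (0.598 to 0.744), from 34 to 126 reads. Its difference from WT_ST, -0.21 (standard error 0.0696, limma, adjusted p = 0.812), was under the fold threshold.

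Groups did not overlap for 4 of these 39 tested genes in WT_ST against CT, 8 in KO_ST against CT and 3 in KO_ST against WT_ST, Mmp11 and Plau included, beside the 14.0%, 16.5% and 11.1% of all tested genes. They are named for completeness. Pcsk6, a proprotein convertase, differed from CT by -0.21 in WT_ST (limma, adjusted p = 0.635) and by -0.25 in KO_ST (limma, adjusted p = 0.499). Spock1, a testican, and App, the amyloid precursor, had higher values than in CT in both stressed groups, with log2 fold changes from 0.092 to 0.11. Adam8, an immune cell sheddase, had lower values in KO_ST than in CT, with a log2 fold change of -0.26 (limma, adjusted p = 0.499), as did Adam15 with -0.13 and Cdh2 with -0.092. Ephb2 was 0.16 above CT in WT_ST, and in KO_ST against WT_ST the difference was 0.16 for Adam19 and -0.066 for Thbs1.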

How the data were processed

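Prefrontal cortex RNA of 9 mice was analysed, 3 per group, with groups and replicate numbers taken from the sample labels. Libraries were made with a stranded mRNA kit. The authors aligned reads to GRCm38 (mm10). The submitters' processing notes name HISAT2 2.1.0, Bowtie2 2.3.4.1 and StringTie 1.3.4d. For each of 24532 genes the authors deposited raw read counts, without normalization, and FPKM, which corrects for transcript length and library depth. Read totals were 43778471 to 61150128 per mouse.

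A pseudocount of 1 was added to each FPKM, and the log2 values were quantile normalized over the 9 mice. Groups were compared in pairs with limma 3.58.1 (mean-variance trend, two-sided, R 4.3.3) on the 14370 genes with a mean of at least 30 reads, with Benjamini-Hochberg adjustment over these genes. Mice of the 2 groups only entered a fit. edgeR 4.0.16 (quasi-likelihood) and DESeq2 1.42.0 on read counts were alternatives, and edgeR without a minimum was used for Mmp25. An exact permutation test of 3 against 3 cannot go below p = 0.1 and was not used. The scripts were tested on simulated data. All 10 members are named, as are tested genes of the related lists that were called or whose groups did not overlap. Mmp3, Mmp7, Mmp9, Mmp28, some cell type markers and genes overlapping a member are named in addition. One gene similar to Mmp17 is not reported here. The members and lists were chosen with earlier results of these data known. Gene positions and promoters come from RefSeq, and strands and overlapping genes from GENCODE (both GRCm38). Plots used Python 3.11.15 and matplotlib 3.10.9.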

Additional observations from a re-analysis of the deposited data

How the results depend on the processing

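The number of called members in KO_ST against CT (3) fell to 1 with an unmoderated test, and to 2 without a minimum on reads, where Mmp2 lost its call at the same fold change, and with a minimum mean FPKM of 1, which Mmp2 does not reach. In WT_ST against CT (1) it was 2 with DESeq2 (Mmp14 added), 2 with edgeR without a minimum (Mmp25 added) and 0 with the unmoderated test. In KO_ST against WT_ST (1) it was 2 with a pseudocount of 0.1 (Mmp2 added), 2 with edgeR without a minimum (Mmp25 added) and 0 with all 9 mice in one fit. With 1 mouse left out, the counts ranged from 1 to 4, 0 to 3 and 0 to 2 in the same order. With the replicate number as a block, 3, 1 and 1 members were called, as without it. The numbers gave no sign of pairing the mice. Between same-numbered mice of different groups, the correlation of their deviations averaged -0.0101 (-0.259 to 0.234). Between different-numbered mice of different groups it averaged 0.0049 (-0.266 to 0.190). With 9 same-numbered pairs, a weak pairing would not be seen.

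Timp3 in WT_ST against CT, at 0.0011, turned to -0.0072 without quantile normalization and to -0.00218 with edgeR without a minimum. Leaving out 1 mouse turned further differences that were not called. The log2 fold changes then ranged in KO_ST against CT from -0.21 to 0.077 for Mmp16, -0.29 to 0.22 for Mmp25 and -0.19 to 0.0077 for Timp2. They ranged in WT_ST against CT from -0.13 to 0.020 for Mmp2, -0.13 to 0.062 for Timp2 and -0.023 to 0.023 for Timp3. In KO_ST against WT_ST they ranged from -0.028 to 0.26 for Mmp16, -0.097 to 0.0059 for Mmp17, -0.028 to 0.022 for Mmp24 and -0.011 to 0.096 for Timp4.

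Over all genes, 355 (WT_ST against CT), 512 (KO_ST against CT) and 287 (KO_ST against WT_ST) were called. The unmoderated test gave 164, 248 and 138, and edgeR without a minimum 700, 843 and 544. A pseudocount of 0.1 gave 544 and 445 in the first and last comparison, and edgeR 535 and DESeq2 552 in the first. With 1 mouse left out the counts were 279 to 542, 413 to 740 and 244 to 477. The cause of these changes was not tested. Depth limits Mmp25 most, since counting error alone gives it a coefficient of variation of 21.9%.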
